A study of Rattus norvegicus with 24 samples.

Results

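The 10 genes described here encode plasma membrane carriers that bring amino acids into skeletal muscle or exchange them across its surface. They are Slc7a5, Slc3a2, Slc43a1, Slc7a1, Slc7a2, Slc38a1, Slc38a2, Slc38a4, Slc1a4 and Slc1a5. Members were found by gene symbol in the deposited expression table, and where a symbol had several entries, the entry with the highest mean over all limbs was used. All 10 were present among 13458 symbols.

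Both tibialis anterior muscles (TA, the ankle dorsiflexor of the lower leg) of 12 male Fischer 344 rats aged 23 ± 1 months were sequenced, with 1 library per limb. In 9 animals, tetrodotoxin (TTX), a blocker of voltage-gated sodium channels, was delivered by an osmotic pump to a cuff around the left common peroneal nerve, which silences the nerve supply to the TA without cutting it. The left TA was taken after 6 to 7 days of TTX (atrophy, n = 3), after the same period followed by 9 days without TTX (recovery, n = 3), or after that recovery and a renewed exposure of 5 to 6 days (repeated atrophy, n = 3). The right TA of these 9 animals, which received no TTX locally, formed the pooled control group (n = 9), and 3 sham animals, 1 for each time point, had the same surgery with saline and gave 3 left and 3 right limbs. The groups therefore model a silenced nerve in very old males, with the opposite limb of the same animals as the reference.

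Amino acid carriers are named by the substrates they prefer and the ions they use. System L carriers exchange large neutral amino acids such as leucine, system y+ carriers take up arginine and lysine, system A carriers concentrate small neutral amino acids with sodium, and system ASC carriers exchange alanine, serine, cysteine and glutamine. In muscle, system A uptake raises the intracellular pool of glutamine and other amino acids that system L can exchange for leucine, an activator of the mTORC1 kinase that promotes protein synthesis, and system A carriers are known to respond to amino acid supply at the RNA level.

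Slc38a2 was the most abundant of the 10 messages, and its level was higher than in control limbs after both periods of TTX. Its mean was 334 ± 155 CPM (reads scaled to a library total of 1000000; SD, n = 9) in control limbs, 678 ± 189 (n = 3) in atrophy, 208 ± 24.3 (n = 3) in recovery and 716 ± 141 (n = 3) in repeated atrophy. A gene was called when its fold change was at least 1.2 and its adjusted p at most 0.05 in limma on log2(CPM + 1), with Benjamini-Hochberg adjustment over all 14031 entries tested. All log2 fold changes given below are on this scale, which understates the change of genes with few reads. By this rule Slc38a2, Slc7a5, Slc3a2, Slc7a1 and Slc38a1 were called higher after the first TTX period, and none of these 5 calls held with the animal as a block or after rescaling of the libraries. Slc38a2 and Slc7a5 were called higher after the second period, the former also with the block and both after rescaling. In recovery Slc3a2 was called lower, and Slc38a4 and Slc43a1 were called lower as well after rescaling.

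In the atrophy comparison 5 of the 10 genes were called higher and 0 lower, beside 20.3% of all entries called higher and 2.33% called lower. The median log2 fold change of the 10 was 0.75, against 0.22 over all entries. In recovery 0 were called higher and 1 lower, beside backgrounds of 4.40% and 3.33%, and the medians were -0.34 and 0.02. In repeated atrophy 2 were called higher and 0 lower, beside 28.1% and 6.24%, with medians of 0.05 and 0.20, so the count was not above that of all entries. These 3 comparisons share their 9 control limbs. In bulk muscle, fewer cells of a type and less RNA per cell cannot be told apart, and CPM is a share of all messages in a limb.

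**Figure D1:**
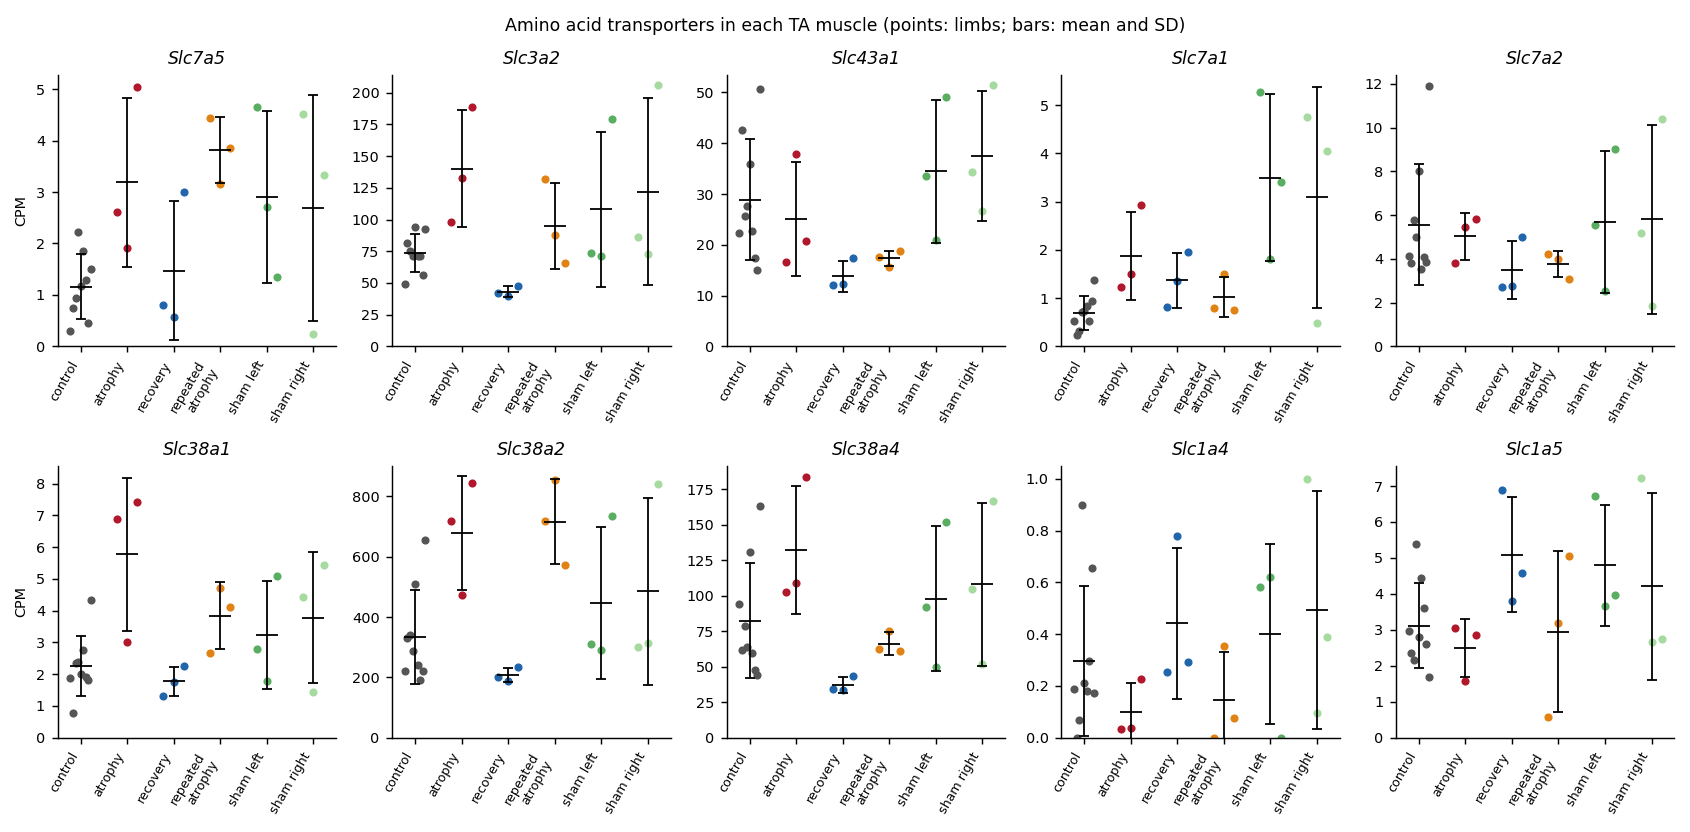
CPM of each transporter in the 24 limbs, 1 panel per gene with its own axis from 0, points for limbs and bars for the group mean and SD (cut at 0 for Slc1a4). Slc38a2 lies between 472 and 855 CPM in the atrophy and repeated atrophy limbs and between 188 and 235 in the recovery limbs, and sham animal 3 is high in both limbs for Slc38a2, Slc38a4 and Slc3a2.

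Levels between genes were compared per kilobase of the entry's length. In control limbs Slc38a2 stood at 72.5 ± 33.6 CPM per kb, Slc38a4 at 43.0 ± 21, Slc3a2 at 39.7 ± 7.98 and Slc43a1 at 11.3 ± 4.64. Slc38a4 and Slc3a2, neighbours in this order, did not differ beyond their spread. The other 6 were much lower, from 2.23 ± 1.10 CPM per kb for Slc7a2 and 1.22 ± 0.462 for Slc1a5 down to 0.104 ± 0.0526 for Slc7a1. Slc1a5 and Slc38a1 (1.06 ± 0.451) overlapped, as did Slc1a4 (0.148 ± 0.146) and Slc7a1. Slc38a2, Slc3a2 and Slc38a4 together made up 90.3% ± 1.27 of the summed level of the 10 per kilobase in control limbs and 94.9% ± 1.38 in repeated atrophy. Within that sum, Slc38a2 held 41.3% ± 3.93 in control limbs, 47.7% ± 8.0 in atrophy, 46.1% ± 0.625 in recovery and 61.1% ± 3.83 in repeated atrophy. The shares of Slc38a4 were 24.6% ± 5.19, 22.1% ± 2.36, 19.6% ± 0.583 and 13.8% ± 1.76 in the same order.

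Slc7a5 encodes LAT1, the light chain that carries leucine and other large neutral amino acids, and works only when paired with the heavy chain encoded by Slc3a2. Slc7a5 was scarce in this muscle, with 0.297 CPM in the lowest, 1.17 in the median and 2.22 in the highest control limb. The 3 atrophy limbs had 2.62, 1.92 and 5.04 CPM, and the 3 repeated atrophy limbs 4.44, 3.16 and 3.86. All repeated atrophy limbs lay above every control limb, while 1 atrophy limb lay within the control range. Recovery limbs had 0.81, 0.573 and 3.01 CPM, with only the third above all controls. Sham limbs, which had no TTX, reached similar levels, with 4.66, 2.7 and 1.35 CPM on the left and 4.51, 0.242 and 3.33 on the right. The sham left limbs differed from control by 0.82 ± 0.29 on the log2 scale, which was not called (adjusted p = 0.32).

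Slc7a5 rose by a log2 fold change of 0.94 ± 0.30 (SE, adjusted p = 0.031) in atrophy and 1.2 ± 0.30 (adjusted p = 0.0049) in repeated atrophy. It was also higher in repeated atrophy than in recovery, by 1.09 ± 0.37 (adjusted p = 0.035). Within animals, the left limb was higher in 3 of 3 atrophy animals and in 3 of 3 repeated atrophy animals, by 1.06 ± 0.55 and 1.11 ± 0.53 (SD) on the log2 scale. With the animal as a block, the adjusted p of Slc7a5 was 0.2 in atrophy, 0.057 in repeated atrophy and 0.33 between repeated atrophy and recovery. The atrophy call was lost without atrophy animal 1 (adjusted p = 0.17), atrophy animal 3 (0.19) or repeated atrophy animal 2 (0.055), and that between repeated atrophy and recovery without any repeated atrophy animal (0.067 to 0.092) or without recovery animal 1 (0.13) or 2 (0.18). Without recovery animal 3, recovery was called lower than atrophy (-1.24, adjusted p = 0.024).

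Slc3a2 encodes 4F2hc, the heavy chain that brings LAT1 and several other light chains to the cell surface. Control limbs had between 49.3 and 94.1 CPM, with a median of 71.2. The atrophy limbs had 97.8, 133 and 189 CPM, all above every control limb. The recovery limbs had 41.8, 39.3 and 47.9 CPM, all below every control limb, and the repeated atrophy limbs had 132, 87.7 and 65.4, with 2 inside the control range and 1 above it.

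Slc3a2 rose by 0.90 ± 0.22 (adjusted p = 0.011) in atrophy and fell by 0.74 on the log2 scale (SE 0.22, adjusted p = 0.047) in recovery. Between the treated groups, recovery was lower than atrophy, with a log2 fold change of -1.63 ± 0.27 (adjusted p = 0.0043), and repeated atrophy was higher than recovery by 1.07 ± 0.27 (adjusted p = 0.0082). The left limb was higher in 3 of 3 atrophy animals and lower in 3 of 3 recovery animals. None of these 4 calls was kept with the animal as a block, where the adjusted p ranged from 0.15 for atrophy to 0.29 for recovery against atrophy. The atrophy call was lost without atrophy animal 1 (adjusted p = 0.11) or 3 (0.059), and the recovery call without any of the 3 recovery animals (0.071 to 0.2), repeated atrophy animal 2 (0.088) or 3 (0.051), or atrophy animal 2 (0.058) or 3 (0.051).

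Slc3a2 has a second entry in the table, on the same strand and with the same 3′ end but with a start 8394 bases upstream in the deposited coordinates (rn7, chr1:205604468-205618932, against chr1:205604468-205610538 for the entry above). The 2 starts match those of the 2 RefSeq promoters of Slc3a2 on GRCr8, which lie the same distance apart. The 120 bases before each start are shown because each entry begins at its own start, and capitals mark the 10 bases next to the start.
Slc3a2 upstream start, chr1:215048065-215048184, minus strand: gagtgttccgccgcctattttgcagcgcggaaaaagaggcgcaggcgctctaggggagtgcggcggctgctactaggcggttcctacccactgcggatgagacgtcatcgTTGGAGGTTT
Slc3a2 downstream start, chr1:215039671-215039790, minus strand: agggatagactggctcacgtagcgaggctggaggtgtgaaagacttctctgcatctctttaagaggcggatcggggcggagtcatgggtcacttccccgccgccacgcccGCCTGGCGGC

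The longer entry had 4.46 CPM in the lowest, 17.8 in the median and 34.5 in the highest control limb. Atrophy limbs had 8.26, 15.7 and 26.9 CPM, recovery limbs 6.26, 8.20 and 6.71, and repeated atrophy limbs 4.19, 7.14 and 15.6. The atrophy limbs sat inside the control range, where those of the shorter entry sat above it. Its log2 fold changes were -0.10 ± 0.44 (adjusted p = 0.9) in atrophy, -1.13 ± 0.44 (adjusted p = 0.12) in recovery and -0.98 ± 0.44 (adjusted p = 0.094) in repeated atrophy. After rescaling the last was called lower (-1.33, adjusted p = 0.03), and on the deposited scale it was called without repeated atrophy animal 3 (-1.30, adjusted p = 0.049), as was recovery without repeated atrophy animal 1 (-1.34, adjusted p = 0.022). The longer entry held 20.2% ± 8.96 of the summed CPM of both in control limbs, 10.3% ± 2.35 in atrophy, 14.2% ± 2.68 in recovery and 9.96% ± 8.35 in repeated atrophy. In exact two-sided permutation tests chosen after the data were seen, these shares gave p = 0.073, 0.3 and 0.12 against control, and 0.18, 0.3 and 0.18 after Benjamini-Hochberg adjustment over the 3 tests, where the smallest possible p is 0.0045. These tests do not use the pairing of limbs. Within animals, the share of the longer Slc3a2 entry was lower in the left limb than in the right in 9 of 9 TTX animals and higher in 3 of 3 sham animals. The difference between left and right was -11.8 ± 12.1 percentage points (SD) in atrophy (-4.86 without atrophy animal 1), -6.81 ± 0.456 in recovery, -7.49 ± 5.65 in repeated atrophy (-4.55 without repeated atrophy animal 3) and 1.30 ± 0.443 in sham. In exact two-sided paired permutation tests, also added after the data were seen, each group of 3 pairs gave p = 0.25, the smallest that 3 pairs allow. The entries overlap and share their 3′ end, so the split of reads between them is an estimate of the counting step.

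**Figure D2:**
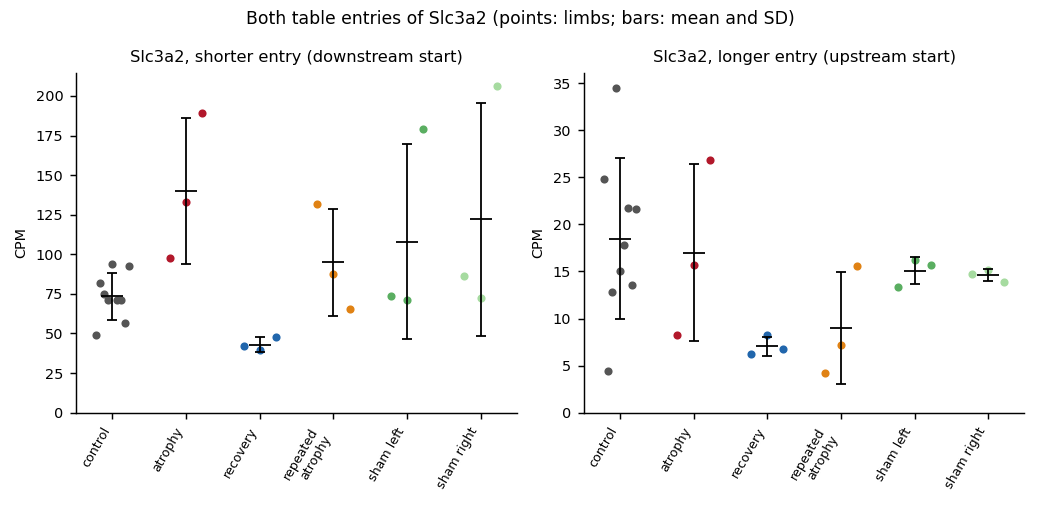
CPM of the shorter (left) and longer (right) table entry of Slc3a2 in each limb, with the group mean and SD. The atrophy limbs of the shorter entry lie at 97.8 to 189 CPM, above all control limbs, while those of the longer entry lie at 8.26 to 26.9 CPM, within the control range.

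Across the 9 control limbs, the log2 levels of Slc7a5 and Slc3a2 gave a Pearson r of 0.57 (exact permutation p = 0.11) and a Spearman rho of 0.33 (exact permutation p = 0.39). Without the 2 limbs farthest from the median of Slc7a5, r was -0.34, but 0.41 with a pseudocount of 10 and 0.24 after rescaling, so its sign depended on the setting. With all 9 limbs, r was 0.65 (exact permutation p = 0.059) with a pseudocount of 0.1, 0.49 (exact permutation p = 0.19) with 10 and 0.44 (exact permutation p = 0.23) after rescaling. A relation between the 2 chains did not pass the test at any of these settings, which does not show that there is none.

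Slc43a1 encodes LAT3, a system L carrier that needs no heavy chain. Its control limbs ranged from 15 to 50.7 CPM around a median of 25.6. Atrophy limbs had 16.7, 37.9 and 20.7 CPM, recovery limbs 12.0, 12.2 and 17.3, and repeated atrophy limbs 17.5, 15.7 and 18.7. All groups overlapped the control range, with 2 of 3 recovery limbs below it and the repeated atrophy limbs at its lower end. The log2 fold change was -0.93 ± 0.30 (adjusted p = 0.064) in recovery and -0.61 ± 0.30 (adjusted p = 0.13) in repeated atrophy, and neither was called. After rescaling libraries by the trimmed mean of their log ratios both were, at -0.96 (adjusted p = 0.04) and -0.98 (adjusted p = 0.02). Within animals, the left limb of Slc43a1 differed from the right by -0.38 ± 0.54 (SD) on the log2 scale in recovery, where it was higher in 1 of 3 animals (adjusted p = 0.47 with the block). In repeated atrophy it was lower in 3 of 3 animals, by a mean of -0.82 ± 0.37 (SD), and was not called with the block (adjusted p = 0.05 after rounding).

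The cationic carriers were both low. Slc7a1 encodes CAT1, the widely expressed system y+ carrier of arginine and lysine, and had 0.23 CPM in the lowest, 0.702 in the median and 1.37 in the highest control limb. Atrophy limbs had 1.22, 1.5 and 2.93 CPM, with 1 of 3 inside the control range. Recovery limbs had 0.81, 1.35 and 1.95, and repeated atrophy limbs 0.795, 1.49 and 0.763. Slc7a1 rose by 0.76 ± 0.21 (adjusted p = 0.017) in atrophy, and the left limb was the higher in 3 of 3 atrophy and 3 of 3 repeated atrophy animals. The call was lost when animal was a fixed block (adjusted p = 0.18) and without atrophy animal 1 (0.13) or 3 (0.065).

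Slc7a1 was the member in which the sham limbs stood farthest from control. The sham left limbs had 5.28, 1.81 and 3.40 CPM, above all 9 control limbs, for a log2 fold change of 1.37 ± 0.23 that was not called (adjusted p = 0.13). Without sham animal 2 the fold change was 1.67 and was called (adjusted p = 0.0099). Sham right limbs had 4.75, 0.484 and 4.05 CPM, so the high values were found in limbs on either side. In the sham left against control comparison 0 of 10 members were called, as were 0 of 13822 entries (0%), and 0 of 10 and 0 of 13483 entries (0%) between the limbs of the sham animals. At an unadjusted p under 0.05, 2 of 10 members (Slc7a5 and Slc7a1) and 1904 entries passed in the former, and 0 members and 576 entries in the latter.

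Slc7a2 encodes CAT2, the second cationic carrier. It had 3.55 to 11.9 CPM in control limbs with a median of 4.14, and 2.71 to 5.82 in the 9 treated limbs. It was called in no comparison. The 2 highest control values, 8.0 and 11.9 CPM, came from the right limbs of atrophy animals 2 and 3. A second Slc7a2 entry with the same coordinates stayed at or below 0.83 CPM in all limbs.

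Slc38a1, Slc38a2 and Slc38a4 encode SNAT1, SNAT2 and SNAT4, the sodium-coupled system A carriers. They lie side by side on the minus strand of chromosome 7 in rn7, at chr7:127738224-127802219, chr7:127851267-127863437 and chr7:128144891-128203001, with no other symbol of the table within the 464778 bases they span.

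Slc38a2 had 192 CPM in the lowest, 287 in the median and 657 in the highest control limb. Atrophy limbs had 718, 472 and 843 CPM, and repeated atrophy limbs 719, 855 and 573. Recovery limbs had 201, 188 and 235 CPM, with 1 limb below the control range and the other 2 near its lower end. The 2 highest control limbs, 511 and 657 CPM, were the right limbs of atrophy animals 2 and 3, and all other control limbs were at 342 or below.

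Slc38a2 rose by 1.09 ± 0.30 (adjusted p = 0.017) in atrophy and 1.19 ± 0.30 (adjusted p = 0.0054) in repeated atrophy. It was lower in recovery than in atrophy, at -1.66 ± 0.37 (adjusted p = 0.0096), and higher in repeated atrophy than in recovery, by 1.76 ± 0.37 (adjusted p = 0.0033). Within animals, the log2 difference between left and right was 1.69, -0.12 and 0.36 in the atrophy animals and 1.11, 1.32 and 1.00 in the repeated atrophy animals. With the animal as a block, repeated atrophy kept its call (1.14, adjusted p = 0.014). Atrophy (0.64, adjusted p = 0.24), recovery against atrophy (-0.72, adjusted p = 0.66) and repeated atrophy against recovery (1.21, adjusted p = 0.16) lost theirs. Without atrophy animal 1 the atrophy call was lost (adjusted p = 0.17), as was the repeated atrophy call without repeated atrophy animal 2 (1.07, adjusted p = 0.055).

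Slc38a1 was far lower, with 0.782 to 4.33 CPM in control limbs and a median of 2.01. Atrophy limbs had 6.90, 3.00 and 7.42 CPM, 2 of them above every control limb. Recovery limbs had 1.32, 1.76 and 2.24 CPM and repeated atrophy limbs 2.68, 4.72 and 4.12. Slc38a1 rose by 1.04 ± 0.27 (adjusted p = 0.014) in atrophy and was lower in recovery than in atrophy, at -1.23 ± 0.33 (adjusted p = 0.02). In repeated atrophy the change was 0.60 ± 0.27 (adjusted p = 0.095), and the left limb was higher in 3 of 3 animals. It was 0.81 with a call (adjusted p = 0.045) when the animal was a block. It was not called against each group's own right limbs (0.81, adjusted p = 0.089), after rescaling (0.32, adjusted p = 0.35) or with quantile normalization (0.36, adjusted p = 0.25). The block ended the atrophy call (adjusted p = 0.18) and that of recovery against atrophy (adjusted p = 0.59). Leaving out atrophy animal 1 also ended both (adjusted p = 0.17 and 0.086), and the second was lost without atrophy animal 3 (0.058) or recovery animal 1 (0.094) or 2 (0.08). Without atrophy animal 3 the repeated atrophy change of Slc38a1 was called (0.70, adjusted p = 0.031), as was its rise from recovery to repeated atrophy without repeated atrophy animal 1 (0.98, adjusted p = 0.038).

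Slc38a4 had 43.8 CPM in the lowest, 64.0 in the median and 163 in the highest control limb. Atrophy limbs had 103, 109 and 184 CPM, recovery limbs 34.0, 33.6 and 43.3, and repeated atrophy limbs 62.3, 75.4 and 61.1. The recovery limbs lay below all control limbs and all atrophy limbs. Recovery was lower than atrophy, at -1.77 ± 0.38 (adjusted p = 0.009). Against control the log2 fold change was 0.75 ± 0.31 (adjusted p = 0.089) in atrophy, -1.02 ± 0.31 (adjusted p = 0.054) in recovery and -0.19 ± 0.31 (adjusted p = 0.7) in repeated atrophy, none of them called, although the first was without atrophy animal 2 (0.96, adjusted p = 0.044) and the second without atrophy animal 3 (-0.88, adjusted p = 0.047).

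The right limbs moved with the left in Slc38a4. The right limbs of the atrophy animals had 129 ± 34.3 CPM (SD, n = 3), against 50.2 ± 8.19 in the recovery and 68.0 ± 9.24 in the repeated atrophy animals. The left limb differed from the right by 0.01 ± 0.24 (SD) on the log2 scale in atrophy, -0.43 ± 0.39 in recovery and -0.04 ± 0.05 in repeated atrophy. With the animal as a block the difference between recovery and atrophy was -0.44 (adjusted p = 0.66), and the call was lost. Mean right limb levels were lower in recovery than in atrophy animals in all other members except Slc7a5, Slc1a4 and Slc1a5. They were 219 ± 25.3 against 463 ± 221 CPM for Slc38a2 and 18.4 ± 4.01 against 36.4 ± 14.2 for Slc43a1. The uncalled Slc43a1 difference between recovery and atrophy was -0.75 without the block and 0.14 with it.

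**Figure D3:**
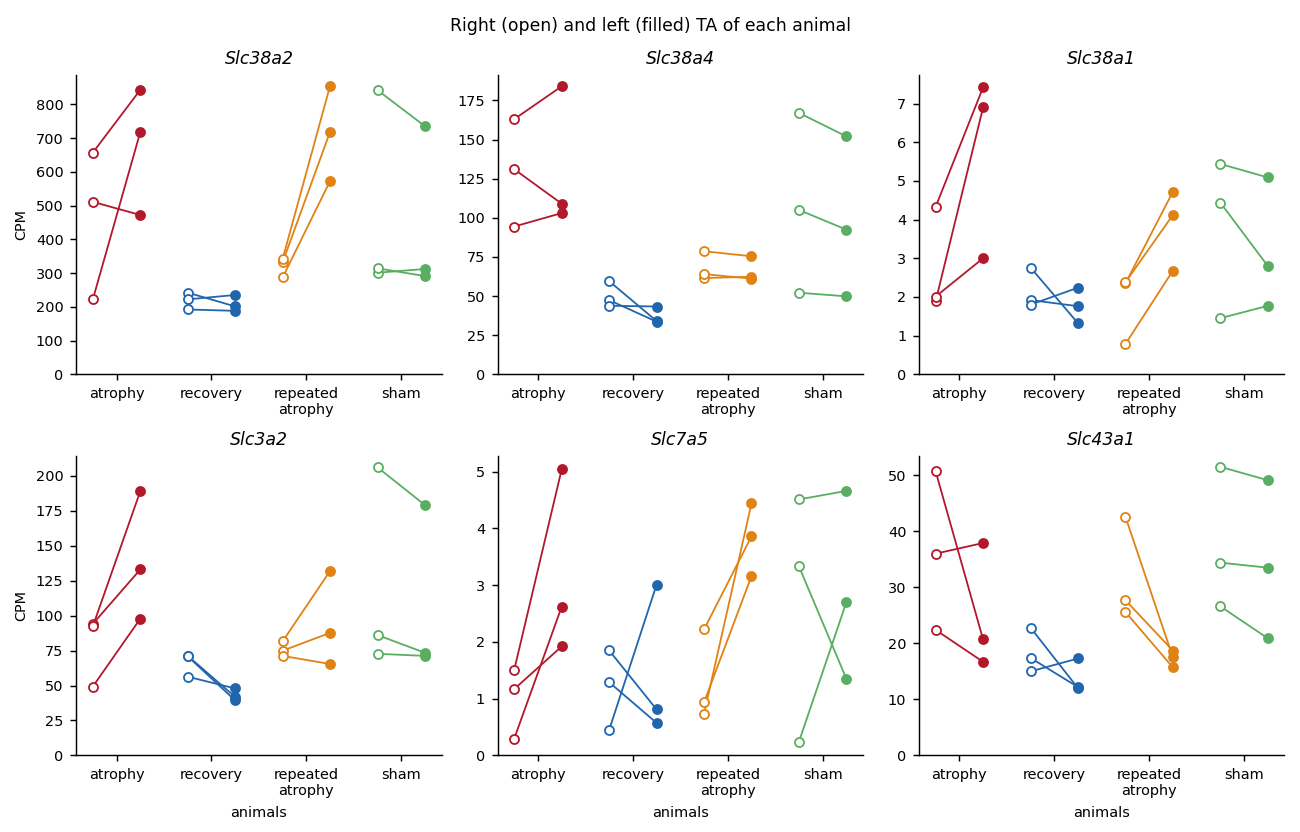
CPM of 6 transporters in the right (open) and left (filled) limb of each animal, joined by a line, in the 3 atrophy, 3 recovery, 3 repeated atrophy and 3 sham animals. Lines for Slc38a2 rise in all 3 repeated atrophy animals and in 2 of 3 atrophy animals, while those for Slc38a4 are nearly level in the repeated atrophy animals, with right limbs at 94.4 to 163 CPM in the atrophy and 43.8 to 59.5 in the recovery animals.

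Slc1a5 encodes ASCT2, an exchanger of glutamine and other neutral amino acids, and Slc1a4 encodes ASCT1, an exchanger of alanine, serine and cysteine. Slc1a5 had 1.68 to 5.38 CPM in control limbs with a median of 2.81. Recovery limbs had 6.88, 3.81 and 4.57 CPM, atrophy limbs 3.06, 1.58 and 2.86, and repeated atrophy limbs 0.586, 3.19 and 5.04. All 3 groups overlapped control and none was called, although repeated atrophy was called lower than recovery without repeated atrophy animal 3 (-1.21, adjusted p = 0.037). Slc1a4 did not exceed 0.998 CPM in any limb and was at 0 in 3 of 24. At the shallowest library 1 read is 0.053 CPM, and no change of Slc1a4 was called. Its recovery limbs (0.253, 0.778 and 0.292 CPM) lay above its atrophy limbs (0.034, 0.0384 and 0.228), as did those of Slc1a5. The log2 fold changes of recovery against atrophy were 0.38 (adjusted p = 0.2 in limma) for Slc1a4 and 0.80 (adjusted p = 0.17) for Slc1a5.

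Between the treated groups, 4 of 10 members were lower in recovery than in atrophy and 0 higher, beside 14.5% of all entries lower and 3.34% higher, with medians of -0.79 for the members and -0.19 for all entries. Slc3a2, Slc38a1, Slc38a2 and Slc38a4 were the 4. In repeated atrophy against recovery, 3 were higher and 0 lower, beside 21% and 6.29%, with medians of 0.56 and 0.18. In repeated atrophy against atrophy 0 of 10 were called by limma, beside 0.0143% of entries higher and 0.0214% lower. At an unadjusted p under 0.05, 1 member (Slc38a4) and 884 entries passed there, and the Slc38a4 limbs did not overlap, with 61.1 to 75.4 CPM against 103 to 184. The right limbs of the same animals had 68.0 ± 9.24 and 129 ± 34.3 CPM, and with the animal as a block the Slc38a4 difference was -0.05 (adjusted p = 0.97), against -0.94 without it.

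The counts depended on scaling and on how the animal entered the fit. When the animal was a random effect (estimated correlation 0.108), the counts of members called were 5 in atrophy, 1 in recovery, 2 in repeated atrophy, 4 in recovery against atrophy and 3 in repeated atrophy against recovery, the same as without an animal term. With the animal as a fixed block, 0 of 10 members were called in atrophy and 0 in recovery. The shares of all entries called in either direction were 0% and 0.0641%. In atrophy, 5 members and 2678 entries still had an unadjusted p under 0.05. In repeated atrophy 2 members were called with the block, Slc38a1 and Slc38a2, both higher. Of all 14031 entries, 3012 were higher and 794 lower there (27.1% in either direction). The block also left 0 calls in recovery against atrophy (0.0143%) and in repeated atrophy against recovery (0.0855%). Rescaling moved the median of all entries from 0.22 to 0.00 in atrophy and from 0.20 to -0.01 in repeated atrophy, and the share of calls that were higher from 89.7% to 48.8% and from 81.8% to 52.0%.

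After rescaling, 0 of 10 members were called in atrophy (9.68% of all entries). The shares of all entries in this paragraph count calls in either direction. The 5 genes called before had log2 fold changes of 0.53 for Slc3a2, 0.56 for Slc7a1, 0.71 for Slc7a5, 0.73 for Slc38a2 and 0.75 for Slc38a1, with adjusted p from 0.051 to 0.14. In recovery 3 members were called (12.1%), all lower, namely Slc3a2, Slc38a4 and Slc43a1. Over all entries 847 were called lower and 845 higher there. In repeated atrophy 3 were called (25.2%), with Slc7a5 (0.95) and Slc38a2 (0.81) higher and Slc43a1 lower. The same 4 members were lower in recovery than in atrophy (10.7%), where 729 of all entries were called lower and 770 higher. In repeated atrophy against recovery (21.7%), Slc38a2 was higher (1.41), Slc1a5 was lower (-1.07, adjusted p = 0.046), and Slc3a2 and Slc7a5 were no longer called.

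**Figure D4:**
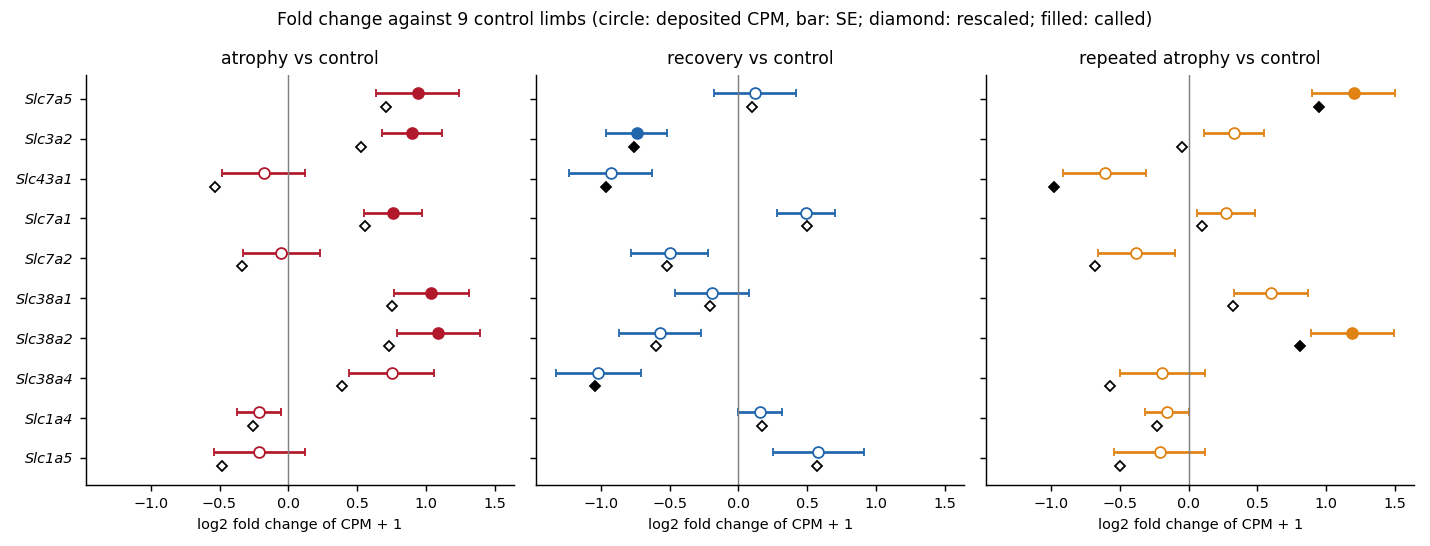
Log2 fold change of CPM + 1 of each transporter against the 9 control limbs in atrophy, recovery and repeated atrophy, as circles with SE bars for the deposited CPM and diamonds after rescaling, filled where called. In atrophy 5 circles and 0 diamonds are filled, and in repeated atrophy the Slc7a5 and Slc38a2 symbols are filled on both scales, while Slc3a2 goes from 0.33 to -0.05.

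Some marker genes of muscle fibres and of other cells were called in the same comparisons, and their counts are set beside the share of all entries called in that direction. The sum of 10 muscle fibre markers, all detected in every limb, ranged over 209239 to 281972 CPM in control limbs, 103498 to 221562 after the first TTX period, 219635 to 239515 after recovery and 130208 to 162430.1 after the second TTX period, with 1 of 10 called lower in atrophy (2.33% of all entries) and, in repeated atrophy, 2 lower (6.24%) and 1 higher (28.1%). The sum of 4 satellite cell markers (Pax7 at 0 in at least 1 limb) was 25.4 to 101 CPM in control, 86.7 to 339 in atrophy and 110.2 to 184 in repeated atrophy, with 3 of 4 called higher in each (20.3% and 28.1% of all entries). In recovery, where 4.40% of all entries were called higher, 5 of 6 fibroblast markers were, with sums of 1083 to 2042 CPM against 219.6 to 576 in control, as were 3 of 8 macrophage markers (111 to 230.2 against 40.9 to 156), and none of either list passed with the animal as a fixed block. The sum of 8 endothelial markers was 211 to 220 CPM in recovery, below all control limbs (222 to 312), with 1 of 8 called lower (3.33% of all entries). In repeated atrophy it was 176 to 269 CPM with a median of 221, and 1 of 8 was called lower (6.24%). Among sham limbs the endothelial sum ranged up to 575 CPM on the left and 675 on the right, and the satellite cell sum up to 296 and 243. Their part in the levels of the transporters was not tested. Sham animal 3, with 735 and 842 CPM of Slc38a2 in its left and right limb against 291 to 314 in the other sham limbs, had no TTX.

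Promoters of 8 of the 10 genes, 9 in all, were analysed here, from RefSeq on GRCr8. Those of Slc7a2 and Slc1a5 were not analysed here. They were searched for the C/EBP-ATF response element TGATGNAA, bound by ATF4 when amino acids are short, on either strand from 250 bases before to 50 after the start. It was present in 3 of the 9 and in 3.98% of all 33469 promoters. Slc38a1 and Slc7a1 were called higher in atrophy, but neither call held with the animal as a block or after rescaling. The matches, in capitals, are shown for Slc38a1, for Slc7a1 and for Slc1a4, which is barely expressed here.
Slc38a1, chr7:129681510-129681569, minus strand: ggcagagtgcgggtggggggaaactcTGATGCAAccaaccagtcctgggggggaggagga
Slc7a1, chr12:11664432-11664491, plus strand: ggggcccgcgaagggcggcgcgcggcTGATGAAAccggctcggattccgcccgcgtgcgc
Slc1a4, chr14:98761764-98761812, minus strand: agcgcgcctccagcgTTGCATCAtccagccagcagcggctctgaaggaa
The matches began at positions -142, -30 and -235 from the start, and that of Slc1a4 was the reverse complement of the pattern. No match was found for Slc7a5, for either Slc3a2 start or for Slc38a2, all also called higher in atrophy. There was none for Slc38a4 and Slc43a1 either. The described element of Slc38a2 lies in its first intron, outside this window. A link between the element and the levels of these genes was not tested. The FOXO motif GTAAACA was present in 3.78% of all promoters and in none of the 9.

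Other amino acid carriers, 30 of 37 listed ones tested, gave 2 called higher and 0 lower in atrophy, 0 in recovery, and 5 higher and 0 lower in repeated atrophy. The shares of all entries called higher were 20.3% in atrophy and 28.1% in repeated atrophy, so these carriers were called no more often than all entries, and their medians of 0.06 and 0.00 stood beside 0.22 and 0.20. Slc6a9, which encodes the glycine carrier GLYT1, had 2.29 ± 0.953 CPM in control limbs, 9.25 ± 4.73 after the first TTX period and 10.1 ± 1.17 after the second, and rose by 1.60 (adjusted p = 0.0065) and 1.81 (adjusted p = 4.5e-04). Slc43a2, which encodes LAT4, the close relative of LAT3, rose by 0.91 (adjusted p = 0.024) and 1.31 (adjusted p = 0.0014). Of the light chains that can replace LAT1 beside 4F2hc, Slc7a6 rose in repeated atrophy by 0.96 (adjusted p = 0.019), from 26.4 ± 12.5 to 48.1 ± 5.83 CPM. Slc7a6 stood at 7.23 ± 3.41 and Slc7a8 at 8.53 ± 6.27 CPM per kb in control limbs, against 0.336 ± 0.184 for Slc7a5.

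Genes of amino acid sensing upstream of mTORC1 gave 9 of 29 called higher and 0 lower in atrophy, 1 and 1 in recovery, and 11 and 2 in repeated atrophy, with medians of 0.34, -0.23 and 0.39. Over all entries, 20.3%, 4.40% and 28.1% were called higher and 2.33%, 3.33% and 6.24% lower, with medians of 0.22, 0.02 and 0.20. Castor2, a paralogue of the arginine sensor CASTOR1, rose by 1.08 (adjusted p = 0.019) and 1.80 (adjusted p = 3.7e-04), and Rraga, the RagA GTPase, by 0.69 (adjusted p = 0.0093) and 1.01 (adjusted p = 2.3e-04). Rraga changed by 0.33 after rescaling in atrophy (adjusted p = 0.1) and by 0.63 in repeated atrophy (adjusted p = 0.0015). Sesn1, a leucine sensor of the sestrin family, fell by 0.84 on the log2 scale (adjusted p = 0.034) in repeated atrophy.

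Of the 20 genes of the amino acid starvation response, 2 were called higher and 1 lower in atrophy, 2 and 2 in recovery, and 4 and 4 in repeated atrophy. Over all entries the shares called higher and lower were 20.3% and 2.33% in atrophy, 4.40% and 3.33% in recovery, and 28.1% and 6.24% in repeated atrophy. Asns, asparagine synthetase, rose by 2.00 ± 0.54 (adjusted p = 0.017) in atrophy and by 3.23 ± 0.54 (adjusted p = 3.5e-04) in repeated atrophy, from 1.48 ± 1.05 CPM in control to 21.2 ± 6.26 in the latter. Atf4, the transcription factor of this response, fell by 1.27 on the log2 scale in repeated atrophy (adjusted p = 0.0026). Of 22 amino acid enzymes, which also include Asns, 2 were higher and 4 lower in atrophy, 2 and 2 in recovery, and 6 and 4 in repeated atrophy, beside the same shares of all entries. Glul, glutamine synthetase, fell by 1.73 on the log2 scale in recovery (adjusted p = 0.033), to 475 ± 213 CPM from 1768 ± 973 in control. Gpt2, a mitochondrial alanine transaminase, fell by 1.62 on the log2 scale in atrophy (adjusted p = 0.022), and Bcat2, the branched-chain transaminase, fell in all 3 comparisons, with log2 fold changes of -0.69, -1.04 and -0.89. No gene of any list, markers included, passed in limma with the animal as a fixed block in atrophy or in recovery, where the adjusted p was 0.29 for Glul and 0.14 for Bcat2.

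The genes with the most similar 3 log2 fold changes against control were found among 7429 entries with a mean of at least 10 CPM in 1 group. Slc38a2 was nearest to Nfkb2, Psmd8 and RGD735065, Slc38a1 to Hspa5, Man1a2 and Gpld1, Slc3a2 to Asrgl1, Dnajc3 and Hint2, Slc7a5 to Rwdd2b, Ran and Fcf1, and Slc7a1 to Tmem126b, Apip and Timm9. The distances, taken over 3 group differences that share their controls, ranged from 0.02 to 0.19 on the log2 scale. Slc7a5, Slc7a1 and Slc38a1 stayed below 10 CPM in every limb, so the CPM + 1 scale understates their changes more than those of the candidates. A small distance for these genes therefore does not show that their levels changed by a similar ratio.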

How the data were processed

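Both TA muscles of 12 rats were sequenced as directional poly(A) libraries. Per the study's methods, the authors removed contaminant reads with bowtie2 2.2.5, aligned the rest to rn7 (STAR, within Partek Flow) and normalized them there. The counting step is not given in the sources used here. The deposited values are CPM, since each column sums to 1000000, although median of ratios is the normalization named in the methods. The tests planned for normalized values were kept. Each row also gives a length, from which CPM per kb was computed. Depth, inferred from the value of 1 read, was 18.9 to 30.9 (median 26.1) in units of 1000000 reads, and whole reads were not recovered, since 88% to 89.5% of low values were whole (tolerance 0.02 reads). Of 14271 rows, 28 exact duplicates were dropped, and 3 columns that match no sample were not used.

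Entries above 0 in at least 3 fitted limbs were fitted as log2(CPM + 1) in limma (version 3.58.1, R 4.3.3), the prior variance following intensity and the 4 groups in 1 fit of 18 limbs without a block. Sham comparisons had their own fits, with the animal as a block between sham limbs. Limb and animal come from the labels, so pairs are limbs of the same animal. Left and right deviations from the group means correlated between -0.30 and 0.49 in TTX animals and between 0.60 and 0.82 in sham animals. The fit was tested on simulated data with independent limbs, the same dispersion for every gene and as many rises as falls. It was not tested for limbs paired by animal or for changes mostly in 1 direction. The alternatives tried were a pseudocount of 0.1 or 10, trimmed-mean rescaling (30% of ratios and 5% of levels trimmed), quantile normalization, other filters, other control limbs, an animal term, and each animal left out. The members and the lists were chosen with earlier results of these data known. Named genes are all members and, of each list, called genes among the 3 largest rises and falls of a comparison, and the 3 most similar patterns per called member.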

Additional observations from a re-analysis of the deposited data

Results flagged for a closer look

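Slc3a2 moved in opposite directions within the animals of different groups. The left limb was higher than the right in all 3 atrophy animals (log2 differences of 0.97, 0.50 and 1.03) and lower in all 3 recovery animals (-0.76, -0.83 and -0.23). The mean difference of the recovery animals minus that of the atrophy animals was -1.44, and with the animal as a block limma gave an adjusted p of 0.29 for it. In the 3 sham animals the left limb was also lower (-0.23, -0.03 and -0.21), and their mean differed from that of the atrophy animals by -0.98, a difference that was not tested. The share of the longer Slc3a2 entry was lower in the left limb in every atrophy, recovery and repeated atrophy animal and higher in the left limb in every sham animal. The differences between left and right were -25.7, -3.20 and -6.52 percentage points in the atrophy animals, -6.99, -6.29 and -7.15 in the recovery animals, -2.09, -7.01 and -13.4 in the repeated atrophy animals, and 0.888, 1.24 and 1.77 in the sham animals. The mean difference of the sham animals exceeded that of the atrophy animals by 13.1 percentage points (6.16 without atrophy animal 1), that of the recovery animals by 8.11 and that of the repeated atrophy animals by 8.79 (5.85 without repeated atrophy animal 3), and these differences between groups were not tested. No control limb of the 10 genes stood apart from the other 8 by Dixon's test. This test looks for 1 stray limb and can miss 2 that are high together. For Slc38a2, the right limbs of atrophy animals 2 and 3 had 511 and 657 CPM, and all other control limbs 342 or below.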

How the results depend on the processing

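The number of the 10 members called moved with the setting. In atrophy it was 5, against 3 with a pseudocount of 10, 2 with quantile normalization or all 12 right limbs as control, and 0 after rescaling, with each group's own right limbs, or with the animal as a block. In recovery it was 1, against 3 after rescaling, with quantile normalization or when entries under a mean of 1 CPM were dropped, 2 with entries summed per symbol or all 12 right limbs, and 0 with a pseudocount of 10, without a filter, without the trend, with own right limbs or with the animal as a block. Fitting the animal as random instead left the 5 counts given in the report unchanged. With the block, recovery against atrophy and repeated atrophy against recovery had 0. Leaving out 1 animal gave 0 to 6 in atrophy, 0 to 1 in recovery, 1 to 3 in repeated atrophy, 3 to 5 in recovery against atrophy, 2 to 4 in repeated atrophy against recovery and 0 to 1 in sham left against control. Leaving out an animal leaves 2 limbs in its group. The direction of an uncalled value turned for Slc3a2 in repeated atrophy (0.33) to -0.05 after rescaling and -0.08 with quantile normalization, for Slc7a5 in recovery (0.12) to -0.05 with quantile normalization and -0.03 with 12 right limbs, and for Slc7a1 in repeated atrophy (0.27) to 0.00 with 12 right limbs. With 1 animal left out, Slc7a5 in recovery ranged from -0.37 to 0.39, Slc43a1 in atrophy from -0.46 to 0.03, Slc7a2 in atrophy from -0.1 to 0.07, Slc1a5 in repeated atrophy from -0.54 to 0.31, and the longer Slc3a2 entry in atrophy from -0.45 to 0.37. The cause was not tested. Of the other settings of single genes, 70 lost a call, 27 gained one, 14 within-animal means moved beyond their SD and 1027 changed neither. Slc1a4 had the lowest mean CPM of the 10 and did not exceed 0.998 CPM in any limb.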
